A study of Mus musculus with 13 samples.

Results

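The coagulation and fibrinolysis genes examined here were 9 genes of endothelial cells (ECs), chosen by symbol: Vwf, F8, F3, Tfpi, Thbd, Procr, Plat, Plau and Plaur. All 9 were listed in every library, among 24984 genes in the tumor tables and 24421 genes in the sprout tables, and all 9 passed the filter on low counts in both sets. The tumor set held ECs that E0771 mammary tumors contained at day 25, sorted as DAPI-, CD45-, CD31+ and CD105+ cells into Smart-Seq2 libraries of 100 cells each. The KO libraries (n = 3) came from Apln-/- C57BL6/J mice that carried shApln tumor cells, and the WT libraries (n = 6) came from wild-type C57BL6/J mice that carried shRenilla tumor cells. Host and tumor cells therefore lost Apelin together, the host deletion was present in every cell of the animal, and the age of the mice was not given. The sprout set held CD31+ ECs sorted from embryoid bodies (EBs), grown from female haploid mouse embryonic stem cells of C57BL/6x129 background with a gene trap in Apln, moved to collagen on day 8 and kept in VEGFA164 at 30 ng/mL. The Apln STOP libraries (n = 2) carried the trap in sense orientation and received DMSO, and the Apln GO libraries (n = 2) came from the sister clone with the trap turned to antisense by Cre and received Apelin Pyr13 at 1000 nM. Trap orientation was given by the labels and treatment by the legends of the study, and 1 legend used the names STOP and GO the other way round. Orientation, exposure to Cre and added Apelin differed together between STOP and GO, so their effects cannot be told apart.

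Clotting on a vessel wall starts when tissue factor (F3) meets plasma factor VII, which TFPI (Tfpi), a Kunitz-type inhibitor made by ECs, holds in check. ECs also store and release von Willebrand factor (Vwf), which captures platelets and carries factor VIII (F8). On the luminal side of the cell, thrombomodulin (Thbd) turns thrombin from a clotting into an anticoagulant enzyme by letting it activate protein C, which the endothelial protein C receptor (Procr) presents to it. Fibrin is removed by plasmin, which is produced from plasminogen by tissue-type (Plat) and urokinase-type (Plau) plasminogen activators, the latter held at the cell surface by its receptor (Plaur).

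In mm10, Vwf lies at chr6:125546774-125686679 on the plus strand with 52 exons in its principal transcript, and F8 lies at chrX:75172715-75382615 on the minus strand with 26. F3 lies at chr3:121723537-121735048 (plus, 6 exons) and Tfpi at chr2:84432855-84476775 (minus, 10 exons). Thbd is a gene of 1 exon at chr2:148404466-148408188 on the minus strand, and Procr lies on the same chromosome at chr2:155751117-155755471 (plus, 4 exons). Plat lies at chr8:22757727-22782844 (plus, 14 exons), Plau at chr14:20836660-20843385 (plus, 11 exons) and Plaur at chr7:24462484-24475968 (plus, 7 exons). In the GENCODE annotation used for these positions, F8 was the member with an annotated neighbour on top of an exon. There Fundc2, a gene on the opposite strand, overlaps it. Whether the annotation used for counting holds this overlap was not examined. The strand setting used for counting was not given in the sources used here either, so reads of F8 and Fundc2 over that stretch may not be told apart.

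Promoter sequence from RefSeq (GRCm38.p6, the build of the files) was matched by symbol for 5 of the 9 genes, namely F3, Tfpi, Procr, Plaur and F8. The bases before the start site are shown for F3, Procr and Plaur, whose levels were lower in both STOP libraries than in both GO libraries, and for Tfpi, whose levels were higher. They are cut short where an annotated exon covers them, each reads 5′ to 3′ on the strand of its gene, and capitals mark the letters TGANTCA, the core recognised by AP-1 factors.
F3, chr3:121723287-121723536, plus strand: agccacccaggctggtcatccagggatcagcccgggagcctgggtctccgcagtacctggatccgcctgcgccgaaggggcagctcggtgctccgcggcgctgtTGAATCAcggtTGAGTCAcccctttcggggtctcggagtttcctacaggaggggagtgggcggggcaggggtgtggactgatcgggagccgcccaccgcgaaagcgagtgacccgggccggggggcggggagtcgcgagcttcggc
Procr, chr2:155750967-155751116, plus strand: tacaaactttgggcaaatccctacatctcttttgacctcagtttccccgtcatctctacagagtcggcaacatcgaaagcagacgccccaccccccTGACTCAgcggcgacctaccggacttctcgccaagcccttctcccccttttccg
Plaur, chr7:24462233-24462482, plus strand: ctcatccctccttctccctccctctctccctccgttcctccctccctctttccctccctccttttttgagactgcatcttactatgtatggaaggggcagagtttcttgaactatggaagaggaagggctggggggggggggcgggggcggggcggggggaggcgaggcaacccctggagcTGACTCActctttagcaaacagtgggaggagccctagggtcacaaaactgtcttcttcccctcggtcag
Tfpi, chr2:84476776-84477009, minus strand: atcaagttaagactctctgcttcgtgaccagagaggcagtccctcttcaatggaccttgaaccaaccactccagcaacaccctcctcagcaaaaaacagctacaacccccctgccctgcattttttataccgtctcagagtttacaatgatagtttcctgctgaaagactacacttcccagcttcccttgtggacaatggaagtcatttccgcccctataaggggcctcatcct
On both strands of the 250 bases before the start, TGANTCA was found 2 times for F3 and 1 time each for Procr and Plaur. Neither of the 2 RefSeq starts of Tfpi held it, nor did that of F8. Of all 32851 RefSeq promoter windows of this length, 6.75% held it. The ETS core GGAA was found in 93.4% of the windows and in those of all 5 genes. CACCC, a KLF motif, stood in 52.0% of the windows, and was found for F3, Procr and Tfpi. The letters AGATAA, bound by GATA factors, were found at the other start of Tfpi and in 9.99% of all windows. Such matches describe letters in these windows and show no binding.

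Total counts per library ranged from 4661044 to 14455093 in tumor ECs and from 12327030 to 16804071 in sprout ECs, so that 3 counts corresponded to between 0.208 and 0.644 CPM (counts scaled to a common library size by the TMM method) and to between 0.179 and 0.243 CPM. This floor covers counting error only, and the member genes had from 17 to 9124 counts in tumor libraries and from 44 to 2907 in sprout libraries. Apln, the targeted gene, stood at 12.1, 8.51 and 2.44 CPM in the KO libraries and at 416 CPM or more in the WT libraries, with a log2 fold change of −6.70 (SE 0.59, adjusted p = 6.13e-05, edgeR's quasi-likelihood test). In sprout ECs Apln stood at 66.1 and 80.2 CPM in the libraries labelled STOP and at 58.2 and 65.9 CPM in the libraries labelled GO (log2 fold change 0.24, SE 0.16, adjusted p = 0.367). Apln mRNA was thus not lower in the libraries labelled STOP, and the direction STOP over GO rests on the labels. Summed over 12 endothelial markers, the level was 10781 to 14149 CPM in KO and 8480 to 12336 CPM in WT libraries, but 644 to 891 CPM in STOP against 2475 to 2565 CPM in GO libraries. A legend of the study gives the tumor libraries the same n, but neither it nor the labels say that the libraries of a group came from separate mice or EB cultures, so the p-values measure the spread between these libraries, which may be technical.

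In sprout ECs, the libraries labelled STOP held less mRNA of the platelet-capturing protein Vwf and of the protein C receptor Procr than those labelled GO. These were the 2 of 9 members that passed the thresholds of an adjusted p under 0.05 and an absolute log2 fold change over 1 in the lower direction, which 3.03% of the 14557 genes tested passed. In the higher direction 0 of 9 passed, where 0.852% of all genes did. Thbd, F3, Plat, Plau and Plaur were also lower in both STOP libraries than in both GO libraries, and Tfpi and F8 were higher in both, without passing. With 2 libraries against 2, a lack of overlap was frequent, at 29.6% of all genes for lower and 31% for higher levels, so the 7 and 2 members without overlap are read from their sizes and tests. At an unadjusted p under 0.05, 6 members were lower and 2 higher, against 14.3% and 12.4% of all genes. Fold changes were below 0 for 7 members and above 0 for 2, against 49.5% and 50.5% of all genes. The median log2 fold change of the members was −1.40, and that of all genes tested was 0.01.

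**Figure D1:**
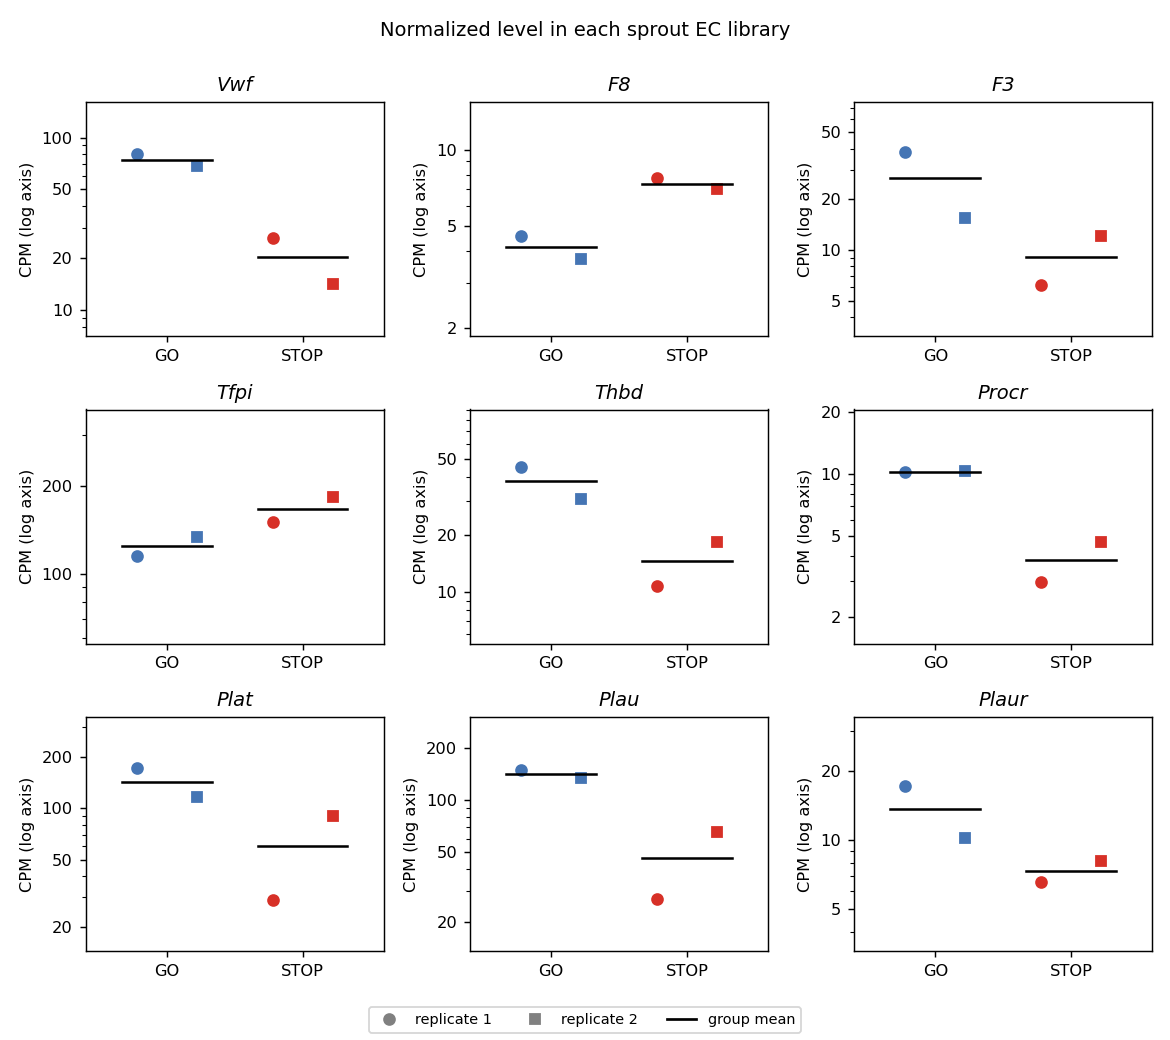
Level of each member in the 4 sprout EC libraries, in CPM on a log axis, with GO libraries in blue, STOP libraries in red, the replicate number by symbol and the group mean as a black line. Vwf lay at 68.0 and 80.5 CPM in GO and at 14.2 and 26.3 CPM in STOP, and the groups do not overlap for any of the 9 genes, with F8 and Tfpi higher in STOP.

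Vwf stood at 26.3 and 14.2 CPM in the STOP libraries and at 80.5 and 68.0 CPM in the GO libraries. Both STOP libraries lay below both GO libraries, and the mean was 20.3 ± 8.60 CPM against 74.3 ± 8.79 CPM (SD, n = 2 each). The log2 fold change was −1.87 (SE 0.30, 95% interval −2.61 to −1.13, adjusted p = 0.0281, edgeR's quasi-likelihood test). The call was lost without GO replicate 1 (adjusted p = 0.170) and without GO replicate 2 (adjusted p = 0.0609), while the log2 fold change stayed between −2.37 and −1.51 with each library left out. Each such fit in sprout ECs leaves 1 library alone in its group, which is then assumed to vary like the other group.

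F8, which circulates bound to the Vwf protein, went the other way. It stood at 7.72 and 7.01 CPM in the STOP libraries and at 4.60 and 3.71 CPM in the GO libraries. Both STOP libraries were the higher ones, at 46 to 114 counts per library, and the log2 fold change was 0.82 (SE 0.31, 95% interval 0.10 to 1.54, adjusted p = 0.147). The overlapping gene Fundc2 stood at 122 and 123 CPM in STOP and at 73.2 and 70.1 CPM in GO, with a log2 fold change of 0.77 (SE 0.13, adjusted p = 0.0174). The level of Fundc2 was thus above that of F8 in all 4 libraries and differed in the same direction by about the same factor, and its part in the counts of F8 was not tested.

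F3, which starts coagulation, stood at 6.16 and 12.1 CPM in the STOP libraries and at 38.0 and 15.6 CPM in the GO libraries. STOP replicate 2 and GO replicate 2 came close to each other, and the log2 fold change was −1.57 (SE 0.57, 95% interval −3.08 to −0.06, adjusted p = 0.177). It was −0.78, short of the threshold, without GO replicate 1, and −2.06 without GO replicate 2, where it passed (adjusted p = 0.0372). With all 4 libraries, DESeq2 placed F3 past the threshold (adjusted p = 0.0109). Limma voom (adjusted p = 0.0987) and edgeR on the RSEM expected counts (adjusted p = 0.181) did not. Its inhibitor Tfpi stood at 150 and 183 CPM in STOP and at 115 and 133 CPM in GO. The gap was small beside the level of the gene, with a log2 fold change of 0.42 (SE 0.15, 95% interval 0.07 to 0.78, adjusted p = 0.131).

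Procr, the receptor that presents protein C, stood at 2.98 and 4.64 CPM in the STOP libraries and at 10.2 and 10.3 CPM in the GO libraries. The GO libraries were nearly equal and both lay above the STOP libraries, at 3.81 ± 1.18 CPM in STOP against 10.3 ± 0.09 CPM in GO (SD, n = 2 each). The log2 fold change was −1.43 (SE 0.32, 95% interval −2.18 to −0.69, adjusted p = 0.0425). This call rested on 44 and 57 counts in STOP, and it was lost with the RSEM expected counts (adjusted p = 0.0529) and without STOP replicate 1 (adjusted p = 0.257), GO replicate 1 (adjusted p = 0.173) or GO replicate 2 (adjusted p = 0.0720). Thbd, which binds thrombin beside this receptor, stood at 10.7 and 18.3 CPM in STOP and at 45.4 and 30.8 CPM in GO. Its log2 fold change of −1.40 (SE 0.31) was close to that of Procr, and its adjusted p of 0.0524 lay just outside the threshold. DESeq2 (adjusted p = 8.18e-04) and limma voom (adjusted p = 0.0367) placed Thbd past it, whereas it lay further outside with the RSEM expected counts (adjusted p = 0.0740) and without STOP replicate 1 (0.199) or GO replicate 1 (0.222). It also passed without STOP replicate 2 (0.0161), without GO replicate 2 (0.0368) and without a filter on low counts (0.00945, each an adjusted p).

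Among the fibrinolysis genes, Plau stood at 27.0 and 65.3 CPM in the STOP libraries and at 150 and 133 CPM in the GO libraries, with a log2 fold change of −1.62 (SE 0.48, 95% interval −2.98 to −0.26, adjusted p = 0.147). Plat stood at 29.0 and 90.7 CPM in STOP and at 172 and 116 CPM in GO (log2 fold change −1.27, SE 0.71, 95% interval −3.55 to 1.01, adjusted p = 0.370). For both activators STOP replicate 1 was far below STOP replicate 2, and the values turned on these libraries. The log2 fold change of Plat was −0.65 (adjusted p = 0.376) without STOP replicate 1 and −2.33 (adjusted p = 0.00933) without STOP replicate 2, and that of Plau was −1.10 (adjusted p = 0.0529) and −2.40 (adjusted p = 0.00105). Leaving out STOP replicate 2 also takes away the spread within STOP, so those lower p-values rest on the spread of the GO libraries. With all 4 libraries, limma voom placed Plau past the threshold (adjusted p = 0.0335) and DESeq2 did not (adjusted p = 0.0553). The urokinase receptor Plaur stood at 6.57 and 8.15 CPM in STOP and at 17.2 and 10.3 CPM in GO. Its log2 fold change of −0.91 (SE 0.32, adjusted p = 0.124) was the smallest among the 7 members that were lower.

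These values stand beside a lower level of endothelial mRNA as a whole in the libraries labelled STOP. The 12 endothelial markers (Pecam1, the antigen of the sort, among them) had a median log2 fold change of −1.96 with a range of −2.50 to −0.80, and 11 of them passed the thresholds as lower. The 7 lower members lay within that range, from −1.87 for Vwf to −0.91 for Plaur. Tfpi and F8 lay outside it, at 2.39 and 2.78 log2 units above the marker median. The summed level of 6 pluripotency markers was 4076 to 4079 CPM in STOP and 1507 to 2539 CPM in GO libraries, with 1 of the 6 higher past the thresholds and a median log2 fold change of 0.94. In bulk libraries, fewer ECs among the sorted cells and less RNA of these genes per EC cannot be told apart. Among the other lists of markers, extraembryonic endoderm markers summed to 97.2 to 178 CPM in STOP against 358 to 504 CPM in GO (3 of 9, Gata4, Sox17 and Afp, lower past the thresholds). This list shares genes with endothelium, since Sox7, Sox17 and Dab2 averaged 238, 168 and 111 CPM in WT tumor ECs, where Afp, Foxa2 and Amn averaged 3.99 CPM or less, so its sum does not mark endoderm cells alone. The platelet markers summed to 4.89 to 9.82 CPM against 23.5 to 34.1 CPM (0 of 3 tested passed). Fibroblast and mural markers varied more within the groups, at 403 and 2207 CPM in STOP and 2466 and 540 CPM in GO. None of the fibroblast and mural, epithelial or macrophage markers passed the thresholds, and no neutrophil marker was tested. Epithelial markers summed to 758 to 968 CPM in STOP and 580 to 637 CPM in GO, macrophage markers to 27.4 to 45.8 CPM and 30.4 to 37.7 CPM, and neutrophil markers to 0.406 to 0.888 CPM in the 4 libraries. The part of these cells in the member genes was not tested.

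**Figure D2:**
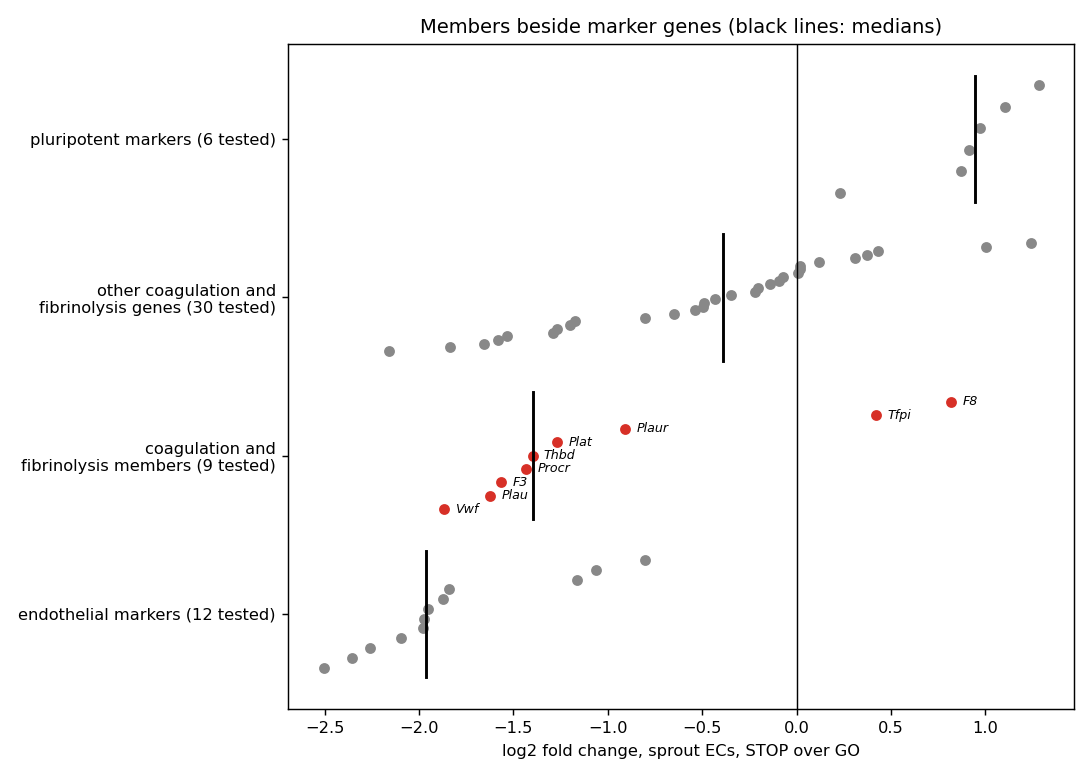
Log2 fold change, STOP over GO in sprout ECs, of each tested gene in 4 lists, with the 9 members in red and labelled and the median of each list as a black line. The 7 lower members lie from −1.87 to −0.91, within the range of the 12 endothelial markers from −2.50 to −0.80, and Tfpi (0.42) and F8 (0.82) lie to the right of 0.

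Of 54 other genes of coagulation, fibrinolysis and their handling, 30 were tested in sprout ECs, and 3 were lower past the thresholds and 0 higher, beside 3.03% and 0.852% of all genes. Their median log2 fold change was −0.39, with 21 below 0 and 9 above. The 3 genes were F2r, the main thrombin receptor, Nt5e, which makes adenosine at the cell surface, and Mmrn2, an endothelial matrix protein. F2r stood at 178 and 261 CPM in STOP against 733 and 580 CPM in GO, with a log2 fold change of −1.58 (SE 0.22, adjusted p = 0.0132). Nt5e stood at 9.68 and 12.7 CPM against 26.1 and 27.8 CPM (−1.27, adjusted p = 0.0216), and Mmrn2 at 36.0 and 53.0 CPM against 124 and 133 CPM (−1.53, adjusted p = 0.0091). In all 3 genes the STOP libraries lay below the GO libraries, as they did for 29.6% of all genes. The 3 calls became 1 without STOP replicate 1, 1 without GO replicate 1 and 5 without GO replicate 2.

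Of the remaining thrombin and protease receptors, F2rl2 stood near the floor of 3 counts in STOP, at a mean of 0.224 CPM against 1.03 CPM in GO (adjusted p = 0.0941). F2rl3 stood at 1.38 CPM in STOP and 4.89 CPM in GO (−1.83, adjusted p = 0.0595), and F2rl1 stood at a log2 fold change of 0.43 (adjusted p = 0.173). Rab27a, a regulator of the granules in which ECs store Vwf, was the list gene with the lowest p among those with higher values, at 80.1 ± 11.7 CPM in STOP against 34.0 ± 13.2 CPM in GO (log2 fold change 1.24, adjusted p = 0.0597). F2, the gene of prothrombin, stood at 2.83 ± 0.31 CPM against 1.42 ± 0.17 CPM (log2 fold change 1.00, adjusted p = 0.182). Anxa2 and S100a10, which form a plasminogen-binding complex at the cell surface, had log2 fold changes of −0.54 (adjusted p = 0.139) and −0.14 (adjusted p = 0.699). Tfpi2, a matrix-bound relative of Tfpi, stood at 0.841 CPM in STOP and 1.47 CPM in GO (−0.80, adjusted p = 0.348).

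In ECs sorted from tumors, 0 of the 9 members passed the thresholds between KO and WT (edgeR's quasi-likelihood test), where 1 of 13073 genes, 0.00765%, did, which was Apln. DESeq2, which gave no p for F8, and limma voom also called 0 members. At an unadjusted p under 0.05, F3 was higher and 0 members were lower, beside 1.87% and 2.94% of all genes. KO and WT libraries overlapped for every member, while 1.06% of all genes were higher and 1.27% lower with no overlap. The members had a median log2 fold change of 0.36, against −0.03 for all genes, with 7 members above 0 (48.1% of all genes) and 2 below (51.9%). The 12 endothelial markers had a median of 0.33 and a range of −0.01 to 0.64, with 0 past the thresholds, and Tfpi, Procr, Plau and Plaur lay within that range.

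**Figure D3:**
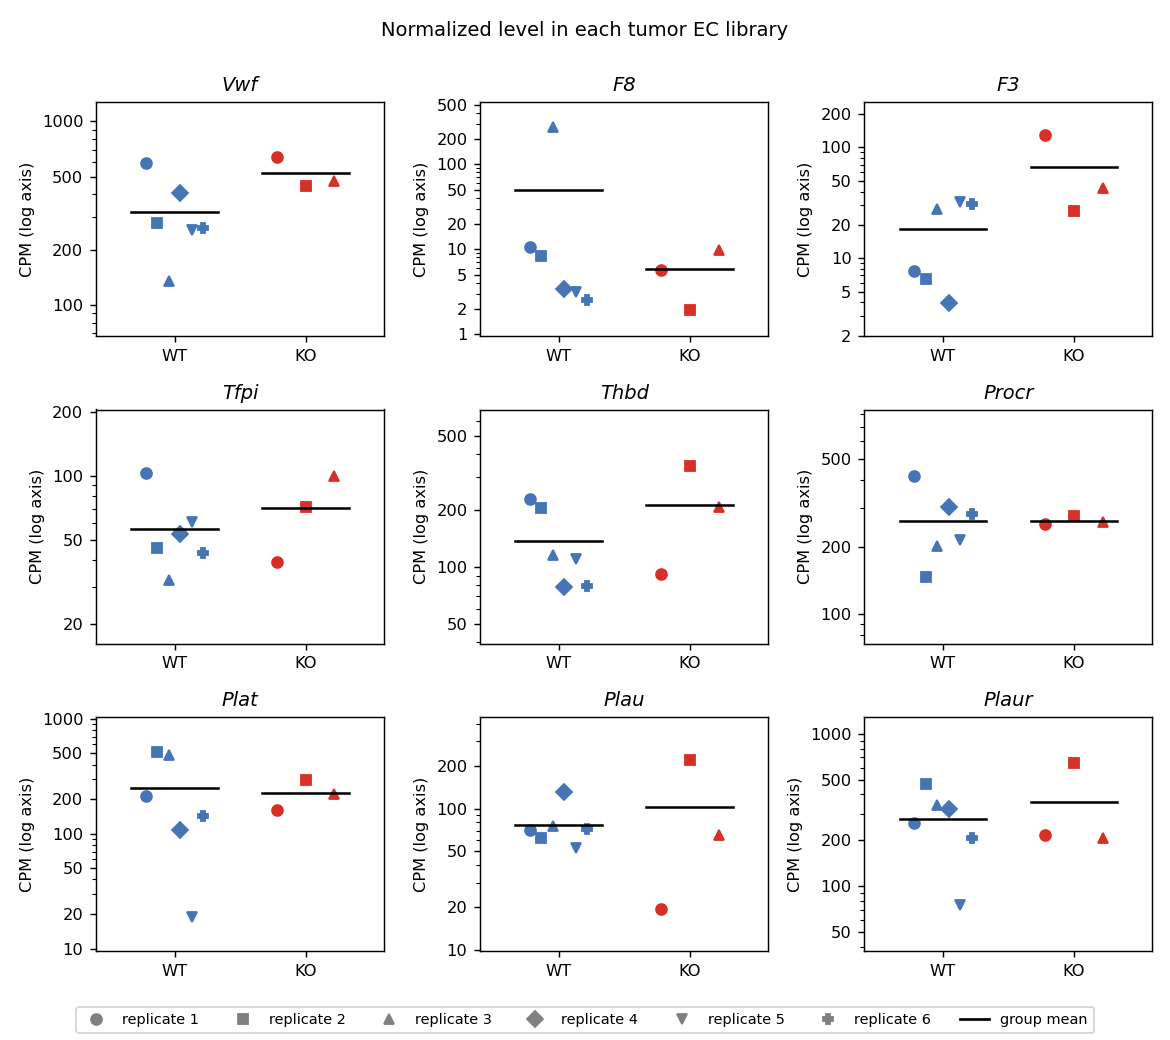
Level of each member in the 9 tumor EC libraries, in CPM on a log axis, with WT libraries in blue, KO libraries in red, the replicate number by symbol and the group mean as a black line. KO and WT libraries overlap for each of the 9 genes, Procr is the most even, and F8 in WT replicate 3 stands at 271 CPM with the next WT library at 10.6 CPM.

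Vwf stood at 638, 447 and 474 CPM in the KO libraries, and in the WT libraries from 135 to 593 CPM with a median of 272 CPM. All 3 KO libraries lay above the WT median, but WT replicate 1 lay between them. The KO libraries averaged 519 ± 103 CPM (SD, n = 3) and the WT libraries 322 ± 158 CPM (SD, n = 6), and the log2 fold change was 0.69 (SE 0.36, 95% interval −0.08 to 1.46, adjusted p = 1.00, edgeR's quasi-likelihood test).

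F8 stood at 5.61, 1.90 and 9.87 CPM in the KO libraries and from 2.55 to 271 CPM in the WT libraries, with a median of 5.84 CPM. A single library, WT replicate 3 with 2758 counts, held the high value, and the next highest stood at 10.6 CPM. The log2 fold change of −3.11 (SE 1.94, 95% interval −7.56 to 1.34, adjusted p = 1.00) became 0.05 (adjusted p = 1.00) without that library. Fundc2, which overlaps F8, stood at 69.2 CPM in WT replicate 3, inside its range of 28.9 to 84.2 CPM over the 9 libraries, so the high value of F8 was not shared by it.

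The genes whose pattern over the 9 tumor libraries was most like that of F8 were Fam129c, Rnf182 and Stab2, with root mean square differences of 0.91, 0.94 and 0.98 in centred log2(CPM + 1) among 13072 genes searched. Stab2, a scavenger receptor of sinusoidal and lymphatic endothelium that is known to take up circulating Vwf and factor VIII, stood at 213 CPM in WT replicate 3 and at 6.12 CPM or less in the other libraries. Fam129c stood at 22.5 CPM there and at 2.78 CPM or less elsewhere, and Rnf182 at 27.1 CPM and at 4.02 CPM or less. Because 1 library dominates F8, these 3 genes share mainly that library.

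Lymphatic markers, a list added after the values were seen, were also high in WT replicate 3. The sum over the list of 6 genes was 2335 CPM there, against 94.3 to 232 CPM in the other WT libraries and 1030, 2104 and 246 CPM in the KO libraries. Lyve1 stood at 1712 CPM and Prox1 at 66.7 CPM in WT replicate 3, whereas KO replicate 2 held 1081 CPM of Lyve1 and 175 CPM of Prox1 with 1.90 CPM of F8. Ccl21a was at 0 in every library. The levels of F8 and of the lymphatic markers thus did not rank the libraries in the same order. Platelet and megakaryocyte markers also peaked in WT replicate 3, at 96.3 CPM against 4.43 to 42.6 CPM in the other libraries. Epithelial markers did so at 66.8 CPM against 7.67 to 44.7 CPM. Macrophage, neutrophil, and fibroblast and mural markers peaked in other libraries. The part of any of these cells in F8 was not tested.

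**Figure D4:**
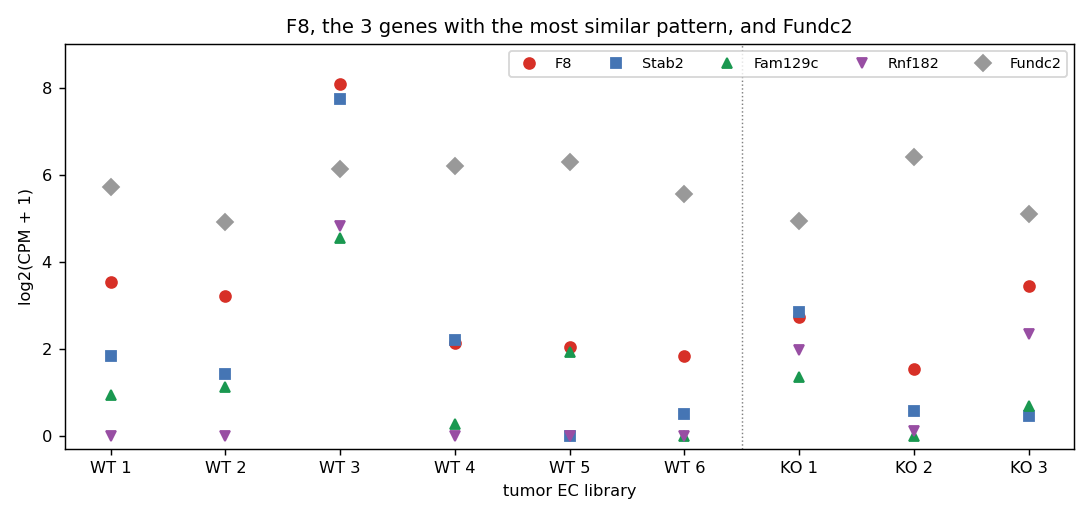
Log2(CPM + 1) of F8, of the 3 genes with the most similar pattern and of the overlapping gene Fundc2 in each tumor EC library, WT to the left of the dotted line and KO to the right. F8, Stab2, Fam129c and Rnf182 peak in WT replicate 3, at 271, 213, 22.5 and 27.1 CPM, and Fundc2 does not.

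F3 stood at 129, 26.6 and 43.0 CPM in the KO libraries and from 3.97 to 32.1 CPM in the WT libraries, with a median of 17.8 CPM. KO replicates 1 and 3 lay above every WT library, and KO replicate 2 lay among the WT libraries. The KO libraries averaged 66.2 ± 55.0 CPM (SD, n = 3) and the WT libraries 18.2 ± 13.5 CPM (SD, n = 6), with a log2 fold change of 1.86 (SE 0.66, 95% interval 0.46 to 3.25, adjusted p = 0.955). Without KO replicate 1 the log2 fold change was 0.93. That library also held the highest sum of macrophage markers, 1051 CPM, against 55.2 and 66.8 CPM in the other KO libraries and 68.3 to 578 CPM in WT. WT replicate 4, with the highest of the WT sums, held the lowest F3 of the 9 libraries, 3.97 CPM, and the part of such cells in F3, which the CD45- gate of the sort was set to exclude, was not tested. Tfpi stood at 39.1, 71.6 and 99.8 CPM in KO and from 32.3 to 103 CPM in WT, with a median of 49.4 CPM (log2 fold change 0.32, SE 0.41, adjusted p = 1.00).

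Procr was the most even member, at 253, 275 and 259 CPM in the KO libraries and from 147 to 418 CPM in the WT libraries with a median of 249 CPM. The KO libraries averaged 263 ± 11.4 CPM (SD, n = 3) and the WT libraries 262 ± 95.5 CPM (SD, n = 6), with a log2 fold change of 0.01 (SE 0.32, 95% interval −0.66 to 0.68, adjusted p = 1.00). The interval excludes a doubling and a halving of its level. Thbd stood at 91.8, 344 and 208 CPM in KO and from 78.2 to 231 CPM in WT, with a median of 113 CPM. KO replicate 2 was the highest of all 9 libraries, and the log2 fold change of 0.65 (SE 0.42, adjusted p = 1.00) was 0.13 without it.

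Plat stood at 162, 296 and 220 CPM in the KO libraries and from 18.9 to 517 CPM in the WT libraries, with a median of 178 CPM (log2 fold change −0.13, SE 0.78, 95% interval −1.88 to 1.61, adjusted p = 1.00). Plau stood at 19.5, 223 and 65.4 CPM in KO and from 53.0 to 131 CPM in WT, with a median of 71.5 CPM (log2 fold change 0.41, SE 0.53, adjusted p = 1.00). Plaur stood at 217, 642 and 208 CPM in KO and from 75.0 to 466 CPM in WT, with a median of 290 CPM (log2 fold change 0.36, SE 0.47, adjusted p = 1.00). For Plau and Plaur, KO replicate 2 was again the highest of the 9 libraries, and without it their log2 fold changes were −0.86 and −0.39. WT replicate 2, the highest library for Plat, held 4142 CPM of fibroblast and mural markers, against 54.7 to 295 CPM in the other 8 libraries, and without it the log2 fold change of Plat was 0.22. WT replicate 3 came close in Plat, at 487 CPM, with a marker sum inside the range of those 8 libraries, and without it the value was 0.17. The libraries with the lowest Plau and the lowest Plat were different ones, KO replicate 1 and WT replicate 5. WT replicate 4, the highest WT library for Plau, held the highest macrophage sum among WT libraries, 578 CPM, despite the CD45- gate, whereas KO replicate 1, with the highest macrophage sum of the 9 libraries, held the lowest Plau. The part of these other cells in Plat and Plau was not tested.

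Of the 54 other genes, 35 were tested in tumor ECs and 0 passed in either direction (edgeR; DESeq2 and limma voom also called 0), with 1 lower and 3 higher at an unadjusted p under 0.05, beside 2.94% and 1.87% of all genes. Their median log2 fold change was 0.25, with 8 below 0 and 27 above. Those with the lowest p among the higher values were Thbs1 (1.29, SE 0.46), a matrix protein that binds platelets, Selp (1.15, SE 0.47), the leukocyte receptor stored together with Vwf, and Gas6 (1.95, SE 0.74), a relative of protein S. Thbs1 stood at 418, 1246 and 139 CPM in KO and from 138 to 333 CPM in WT. KO replicate 2 was its highest library and KO replicate 3 lay among the WT libraries. Selp stood at 630, 779 and 809 CPM in KO and from 117 to 703 CPM in WT, so that 1 WT library lay among the KO libraries. Gas6 stood at 75.3, 98.2 and 45.8 CPM in KO and from 1.76 to 60.0 CPM in WT. Its highest WT library, WT replicate 3, also held the highest lymphatic sum, and the part of such cells in Gas6 was not tested. Among the lower values the genes with the lowest p were Cd63 (−0.72, SE 0.32), a membrane protein of the granules that store Vwf, Serpinc1 (−1.74, SE 1.70), the gene of antithrombin, and F5 (−1.32, SE 1.49), the cofactor of factor Xa. F2r (0.52), F2rl1 (0.05), F2rl2 (−0.80), F2rl3 (0.25), Tfpi2 (0.31), Anxa2 (0.24) and S100a10 (−0.09) had adjusted p-values of 1.00. Anxa2 was abundant, at 2450 CPM in KO and 2071 CPM in WT.

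Effects of KO over WT and of STOP over GO were compared directly in 1 fit of all 13 libraries, in which 0 members passed, beside 1 of 15762 genes (0.00634%, Apln). Vwf came nearest, with a difference of 2.51 log2 units between the tumor and the sprout effect (SE 0.62, adjusted p = 0.226, edgeR's quasi-likelihood test). With limma voom and quality weights by set, shared by all libraries of a set, the same difference was 2.70 (adjusted p = 0.00829). Vwf was then the 1 member that passed. The differences were 3.36 for F3 (SE 1.21, adjusted p = 0.738), 2.00 for Thbd (SE 0.73, adjusted p = 0.765), 1.99 for Plau (SE 0.90, adjusted p = 1.00) and 1.39 for Procr (SE 0.52, adjusted p = 0.802). F8 differed in the other direction, by −4.01 (SE 2.61, adjusted p = 1.00), which became −0.82 without WT replicate 3. The differences of Plaur and Plat were 1.21 (SE 0.79) and 1.08 (SE 1.31). Tfpi was the member with the most similar effects in the 2 sets, at 0.32 in tumor ECs and 0.42 in sprout ECs (difference −0.15, SE 0.63). The 2 comparisons differed in how Apelin was targeted and in the cells used, and Apln mRNA was lower in only 1 of them, so a difference between them is not one between tissues alone.

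**Figure D5:**
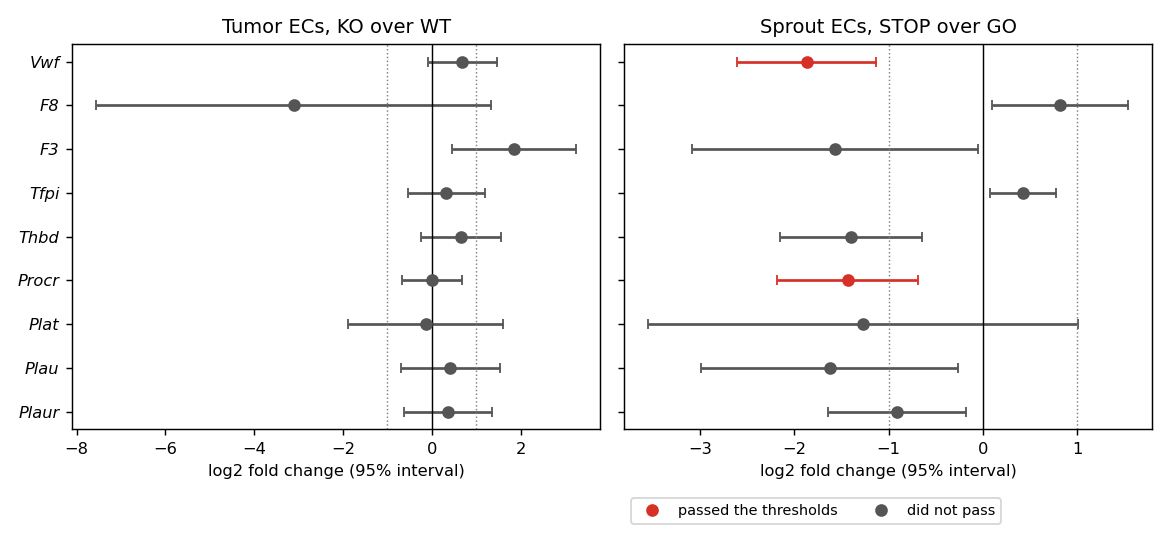
Log2 fold change of each member with its 95% interval, KO over WT in tumor ECs on the left and STOP over GO in sprout ECs on the right, with dotted lines at −1 and 1 and genes past the thresholds in red. Vwf (−1.87) and Procr (−1.43) pass in sprout ECs, and in tumor ECs Vwf (0.69) and Procr (0.01) do not.

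Levels were compared between genes per length, as CPM per kb of transcript. In WT tumor ECs the order of the mean levels was Plaur (199), Procr (174), Plat (97.1), Thbd (36.8), Vwf (36.5), Plau (33.0), Tfpi (32.9), F3 (9.70) and F8 (6.79). Neighbours in this order overlapped between libraries except Tfpi and F3. The mean of F8 and its overlap with F3 rest on WT replicate 3 (36.9 CPM per kb), since F8 stood from 0.347 to 1.44 CPM per kb in the other 5 WT libraries and F3 at 2.12 or more. In KO tumor ECs Plaur (255) and Procr (175) led again, Vwf (58.8) stood before Thbd (57.7), and F8 (0.79) closed the order. Neighbours did not overlap between Procr and Plat (88.5) or between F3 (35.3) and F8.

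Sprout ECs showed another order, which is set beside that of the tumor ECs without a test because the sets were prepared and normalized separately. In GO libraries Tfpi (72.5 CPM per kb), Plau (60.4) and Plat (56.3) stood above F3 (14.3), Thbd (10.2), Plaur (9.84), Vwf (8.41), Procr (6.83) and F8 (0.57). In STOP libraries Tfpi led at 97.3 CPM per kb, followed by Plat (23.4) and Plau (19.7), then Plaur (5.27), F3 (4.86), Thbd (3.90), Procr (2.53), Vwf (2.29) and F8 (1.00). Tfpi did not overlap with its neighbour in either group. By mean level, Procr, at rank 2 of the 9 members in tumor ECs, thus stood at rank 8 in GO and rank 7 in STOP libraries. Plaur, at rank 1 by mean level in tumor ECs, stood at ranks 6 and 4. Plaur and Procr overlapped between libraries in both tumor groups, as did Plaur and Thbd in GO and Plaur and F3 in STOP.

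Within each library, the log2 ratio of F3 to its inhibitor Tfpi, per length, was −3.22 and −1.73 in the GO libraries and −4.73 and −4.05 in the STOP libraries. The ratio of Plau to its receptor Plaur lay from 2.37 to 2.95 in GO and from 1.29 to 2.25 in STOP. For both ratios the STOP libraries lay below the GO libraries, at n = 2 each and without a test. Among single genes, 29.6% were lower with no overlap, and the share for ratios was not computed. F3 lay within the range of the endothelial markers and Tfpi outside it. A lower share of ECs among the sorted cells and a lower ratio of F3 to Tfpi within ECs therefore cannot be told apart. In tumor ECs both overlapped between KO and WT. The ratio of F3 to Tfpi was −1.56 to 1.59 against −3.86 to −0.34, and that of Plau to Plaur was −4.22 to −2.27 against −3.66 to −1.25. Plau exceeded Plaur per length in each of the 4 sprout libraries and lay below it in each of the 9 tumor libraries. The sets are put side by side without a test here too, since they were prepared and counted separately.

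For the other members, likeness over the 9 tumor libraries was closest to Slfn4 for Vwf (root mean square difference 0.25 in centred log2(CPM + 1)), to Anxa9 for F3 (0.65), to Mcee for Tfpi (0.16) and to Crebl2 for Thbd (0.30). It was closest to 3830406C13Rik for Procr (0.15), to Ccng2 for Plat (0.46), to D17H6S56E-5 for Plau (0.33) and to Phc1 for Plaur (0.24). For Vwf, 9.66% of all genes lay nearer to it than its own SD of 0.67 over the libraries, and for Plat 29.7%. These values describe 9 libraries. Crebl2 was at 0 counts in WT replicates 4, 5 and 6 and at 3.94 CPM or less in every library. Anxa9 had 1 or 2 counts in WT replicates 1, 2 and 4. For these genes the distances depend on the 1 that is added to CPM. No member was among the genes nearest to another.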

How the data were processed

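RNA-Seq of 9 tumor EC and 4 sprout EC libraries was used, each with its own file and none pooled, with groups and replicate numbers from the sample labels. The authors counted reads per gene on mm10 and deposited raw whole-number counts: featureCounts (Subread 1.6.2) for tumor ECs, and HTSeq 0.6.1p1 after STAR 2.5.0a for sprout ECs, where 42.6% to 49.6% of the total tally was set aside as not unique. The aligner of the tumor reads is named differently in the paper (STAR) and in the submitters' processing notes (Bowtie2 2.3.4.1). For the sprout libraries the authors also ran RSEM 1.2.25 and deposited expected counts, which were rounded and used as an alternative, TPM, which were read but support no statement, and transcript lengths, which gave the values per kb. The mean length of each gene over the sprout libraries was used for the tumor libraries as well. The counts carry no molecular identifiers.

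Counts were scaled by TMM, filtered by filterByExpr (minimum count 10) and tested by robust quasi-likelihood in edgeR 4.0.16 (R 4.3.3), in 1 fit per set. P-values were adjusted over all genes tested by the Benjamini-Hochberg method. As in the methods of the study, genes passed at an adjusted p under 0.05 with a log2 fold change beyond 1 in either direction. The difference of the effects was a contrast in a fit of all 13 libraries. Ratios used a pseudocount of 0.5 counts. The alternatives were DESeq2 1.42.0, its size factors, limma 3.58.1 (voom), other filters, RSEM counts, a replicate block and each library left out. The members, the gene lists and the rules were chosen with earlier results of these data known. All members and Apln were named, and of the other coagulation genes those that passed, those set by name (1 of them is not reported here) and the 3 higher and 3 lower with the lowest p in each set, as well as the genes nearest to each member over the tumor libraries. Fundc2 and the lymphatic markers were added after the values were seen. Replicates of a group differed by more than counting error, and each library was counted once. On simulated counts in which 200 genes differed by 2 log2 units, the fit called 34% of them in the tumor design and 85% in the sprout design, and at 4 log2 units it called 66% and 98%. For the difference of effects, 35.5% of the genes that differed by 4 were called. Genes simulated without a change were called as well. In the tumor design these were 0 with no gene changed, 3 at 2 log2 units and 7 at 4. In the sprout design they were 2, 9 and 13, and for the difference of effects 6.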

Additional observations from a re-analysis of the deposited data

Results flagged for a closer look

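Among 12 sets of WT values examined (n = 6 each), 2 held a library whose gap to its neighbour exceeded the share of the range set by Dixon's 95% limit, and chance alone gives such a gap in about 1 of 20 groups. F8 in WT replicate 3 stood at 271 CPM, with the next library at 10.6 CPM. Plau in WT replicate 4 stood at 131 CPM, with the next at 75.4 CPM.

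The effects differed between the sets of ECs for the targeted gene Apln, with a difference of −6.99 log2 units (SE 0.74, adjusted p = 4.39e-04, edgeR's quasi-likelihood test of the contrast over 13 libraries), Apln being lower in KO than in WT and not lower in the libraries labelled STOP than in those labelled GO.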

How the results depend on the processing

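Of 501 values under alternative settings, 444 kept their direction and their side of the threshold, or for counts stayed within 1.5 times. In tumor ECs the count of members called stayed at 0 under every alternative run. The 2 members called lower in sprout ECs became 4 with DESeq2, 4 with limma voom, 1 with RSEM expected counts, and 0 to 5 with 1 library left out (0 without GO replicate 1 and 5 without STOP replicate 2). The 3 other coagulation genes called became 6 without a filter, 7 with DESeq2, 5 with voom, and 1 to 5 with 1 library left out. For the difference of effects, voom called 1 member, Vwf, where edgeR called 0. The cause of these shifts was not tested.

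Same-numbered libraries did not deviate together, with correlations of −0.07, 0.06 and −0.14 in tumor ECs and −0.43 in sprout ECs. With the replicate number as a block, 1 member (Vwf) and 0 other genes were called in sprout ECs, and with the numbers crossed, a setting added after seeing the data, 6 and 9.

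Some tumor log2 fold changes near 0 turned sign. With voom, Procr turned to −0.051, Plat to 0.29 and Plau to −0.30, and in the replicate block Plau turned to −0.076 and Plaur to −0.16. With 1 library left out, the ranges were −0.017 to 0.61 for Tfpi (below 0 without KO replicate 3), −0.12 to 0.19 for Procr (below 0 without KO replicate 2 or WT replicate 2, 3 or 5), −0.38 to 0.22 for Plat (above 0 without KO replicate 1 or WT replicate 2 or 3), −0.86 to 0.90 for Plau, −0.39 to 0.64 for Plaur (both below 0 without KO replicate 2) and −3.77 to 0.050 for F8 (above 0 without WT replicate 3). The difference of effects of Tfpi ranged from −0.50 to 0.16 (above 0 without KO replicate 1 or WT replicate 1). The number of libraries, 2 per group in sprout ECs and 3 and 6 in tumor ECs, limits the precision.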
